A study of Homo sapiens with 8 samples.

Results

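Transcripts of 10 genes that ERK signalling switches on, among them inhibitors that feed back on the same pathway, were followed in BT-549, an established triple negative breast cancer (TNBC) cell line. All 10 are called feedback genes below. They are the phosphatases DUSP4, DUSP5 and DUSP6, the Sprouty and Spred genes SPRY2, SPRY4, SPRED1 and SPRED2, the transcription factors ETV4 and ETV5, and PHLDA1. They were taken by symbol from the 23228 genes of the deposited lists, and all 10 were among the 13694 genes tested, with at least 50 counts in every library. Cells received vehicle (DMSO), EC359, an inhibitor of the leukemia inhibitory factor receptor (LIFR), at 100 nM, vorinostat, a histone deacetylase inhibitor (HDACi), at 10 µM, or both drugs at these doses (the combination). All were treated for 24 h, and each of the 4 groups had 2 RNA-seq libraries, 8 in all. The cells are a single established line grown in culture, and the methods speak of biological replicates for in vitro assays in general but do not say whether the RNA-seq libraries of a group came from separate cultures, so errors and p-values measure the spread between libraries, which may be technical. The 10 symbols were selected on the counts of these same 8 libraries, with differences between the groups in view, and which comparison weighed most is not recorded. The calls, counts and intervals given for these 10 genes therefore describe the libraries they were selected on and are no independent test, and no p-value of a single one of them is given.

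When growth factor receptors activate Ras, the kinases RAF, MEK and ERK are switched on in turn, and ERK then raises transcription of genes that restrain it. Dual-specificity phosphatases (DUSPs) remove phosphate from ERK, with DUSP6 acting in the cytoplasm and DUSP4 and DUSP5 in the nucleus, while Sprouty and Spred proteins act at the membrane and limit the activation of Ras and RAF. ETV4 and ETV5 belong to the PEA3 group of ETS transcription factors, which carry the output of receptor signalling to target genes. PHLDA1 encodes a pleckstrin homology-like protein whose transcript is commonly raised by ERK activity. Several of these transcripts are widely read as part of a gauge of ERK activity in tumor cells, although protein and phosphorylation were not measured in these files.

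Between 19069450 and 24759041 counts per library fell on genes. Within a group the libraries differed most under EC359, where log2 differences between them had an SD of 0.56 over genes, compared with 0.35 in vehicle, 0.31 under vorinostat and 0.45 under the combination. Markers of a mesenchymal breast line (VIM, CDH2, ZEB1 and FN1) summed to between 4560 and 14100 CPM (counts scaled to a common library size), while 6 luminal epithelial markers summed to between 1.31 and 10.4 CPM and 5 blood and endothelial markers to between 0.254 and 1.11 CPM. In bulk RNA, fewer cells carrying a transcript and less of it per cell cannot be told apart.

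RefSeq promoter entries (GRCh38.p14) were at hand for 6 of the genes, in 9 entries, and the 250 bases upstream of the start were searched on both strands for 5 motifs chosen after the data had been seen. The windows of 3 genes are printed because they span the range of the EC359 difference described below, from DUSP6, the largest, to SPRED1, the smallest, with PHLDA1 between them. Capitals mark the core of ETS factor sites, CGGAA, or its reverse complement TTCCG, and each run reads 5′ to 3′ on the strand of its gene.
DUSP6, chr12:89352502-89352751, minus strand: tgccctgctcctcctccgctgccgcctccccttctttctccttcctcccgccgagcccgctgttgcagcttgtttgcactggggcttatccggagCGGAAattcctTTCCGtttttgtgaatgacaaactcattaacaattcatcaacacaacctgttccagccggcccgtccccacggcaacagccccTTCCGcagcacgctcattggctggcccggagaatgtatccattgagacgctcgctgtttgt
PHLDA1, chr12:76031777-76032026, minus strand: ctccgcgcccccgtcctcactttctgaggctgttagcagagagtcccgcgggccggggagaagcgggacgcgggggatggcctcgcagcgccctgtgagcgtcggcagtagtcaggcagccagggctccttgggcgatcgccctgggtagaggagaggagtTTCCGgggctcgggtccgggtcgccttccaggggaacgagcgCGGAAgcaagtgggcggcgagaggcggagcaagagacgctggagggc
SPRED1, chr15:38252586-38252835, plus strand: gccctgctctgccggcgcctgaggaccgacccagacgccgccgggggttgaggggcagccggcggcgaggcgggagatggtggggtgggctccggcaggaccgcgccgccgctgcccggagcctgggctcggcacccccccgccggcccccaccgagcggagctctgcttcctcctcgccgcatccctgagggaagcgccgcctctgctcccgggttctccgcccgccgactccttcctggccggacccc
The DUSP6 window held 3 ETS core matches at a GC content of 57.2%, the PHLDA1 window 2 at 70.4% and the SPRED1 window none at 78.4%. Of 35116 RefSeq promoter windows of the same length, 30.3% held at least 1 ETS core match, and the median GC content was 58%. The first of 3 SPRY2 entries held 2 ETS core matches, and those of SPRY4 and SPRED2 held none. The EC359 log2 fold changes of these 3 genes were 1.12, 3.96 and 0.73. Over the 6 genes searched, the number of matches thus did not follow the size of the EC359 difference. TGACG, the core of sites for CREB and ATF factors, was present in the first SPRY2 entry and in SPRY4, and in 21.2% of all windows. The AP-1 site TGANTCA, present in 6.57% of all windows, and the CArG box bound by SRF, present in 1.16%, were found in none of the 9 entries. GGGCGG, the GC box, was present in 42.6% of all windows, the DUSP6 window not among them. No matches of different motifs overlapped. A match is a description of the letters, and DUSP4, DUSP5, ETV4 and ETV5 were not searched.

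Under EC359 alone, both libraries lay above both vehicle libraries for 10 of 10 genes, as they did for 24.6% of all tested genes, with a further 28.8% wholly below and 53.4% apart in all. A gene was called where its adjusted p was below 0.01 and it moved by more than 1 on the log2 scale, and 8 of the 10 were called higher and none lower, where 3.67% of all tested genes were called, 1.94% higher and 1.72% lower. The median log2 fold change of the 10 was 2.69, and that of all tested genes was -0.02. DUSP6 ranked 30 and SPRY4 ranked 38 among 13694 genes ordered from the largest log2 fold change down. The 2 genes that were not called, SPRED1 and SPRED2, had log2 fold changes of 0.66 and 0.73. The count of 8 was also found with each library left out in turn.

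**Figure D1:**
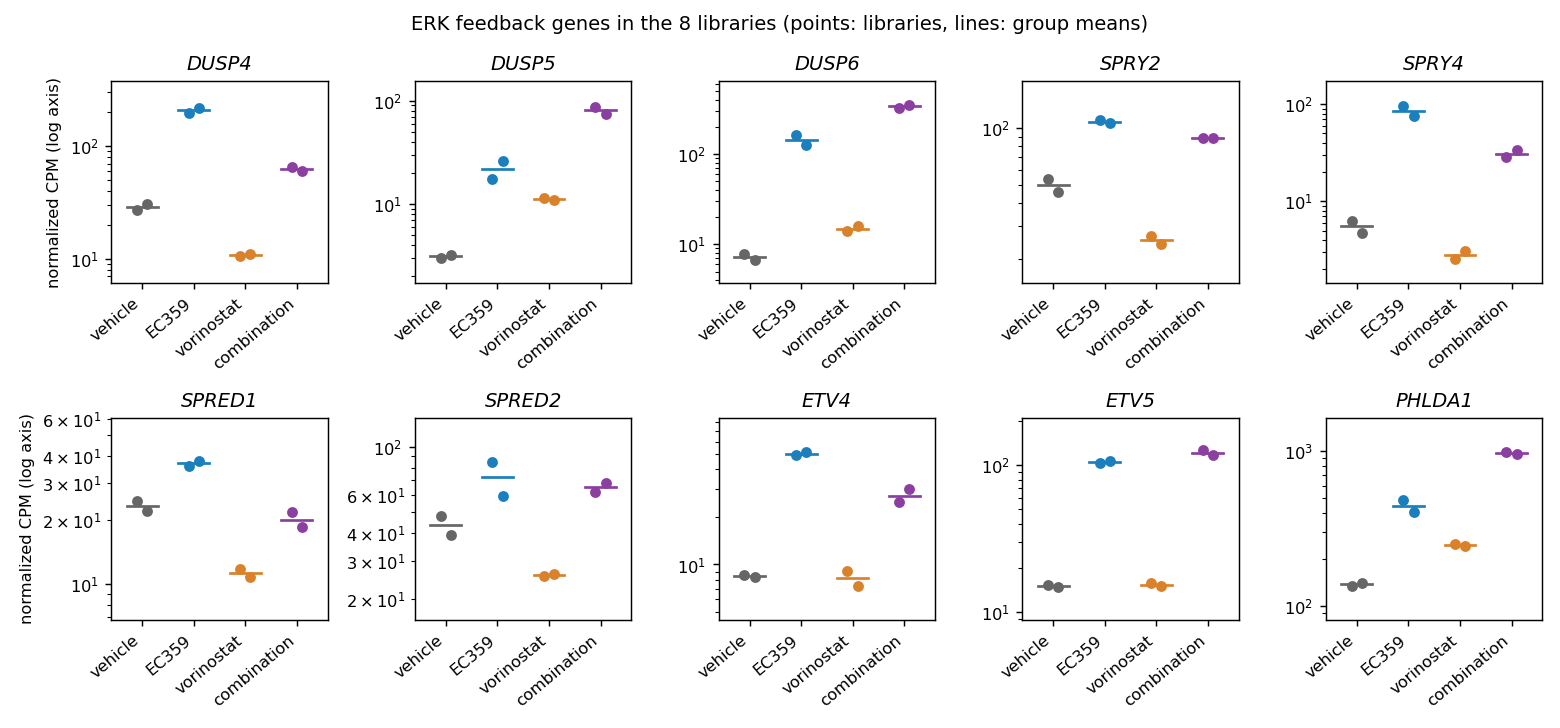
Normalized CPM (log axis, a separate scale for each gene) of the 10 ERK feedback genes in the 8 libraries, with vehicle, EC359, vorinostat and the combination on the horizontal axis. Points are libraries and lines are group means. Both EC359 points lie above both vehicle points in every panel, whereas vorinostat points lie below vehicle for DUSP4, SPRY2, SPRY4, SPRED1 and SPRED2.

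Among the phosphatases, DUSP6 (chromosome 12, 89741012 to 89746278 on GRCh37, minus strand) had a normalized level of 7.74 and 6.77 CPM in the vehicle libraries, 164 and 125 under EC359, 14.1 and 15.8 under vorinostat, and 322 and 352 with both drugs. No groups overlapped, and the order from low to high was vehicle, vorinostat, EC359 and the combination. Against vehicle, the log2 fold change of DUSP6 was 4.32 ± 0.16 (SE) under EC359, a 19.9-fold higher level. It was 1.04 ± 0.16 under vorinostat, a call that was lost without vehicle replicate 2 (0.94) or vorinostat replicate 2 (0.95), and 5.53 ± 0.17 under the combination. DUSP6 was therefore higher with both drugs than with either drug alone, by 1.22 ± 0.14 against EC359 and 4.49 ± 0.16 against vorinostat on the log2 scale.

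DUSP5 (chromosome 10, 112257665 to 112271291, plus strand) took the same order at a lower level. It had 3.02 and 3.18 CPM in vehicle, 17.3 and 26.1 under EC359, 11.4 and 10.9 under vorinostat, and 87.3 and 74.7 with both drugs. No groups overlapped, although the EC359 libraries had the widest ratio of any group. On the log2 scale it was 2.80 ± 0.22 higher than vehicle with EC359, 1.84 ± 0.22 with vorinostat and 4.71 ± 0.22 with both, the last a 26.1-fold higher level.

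DUSP4 (chromosome 8, 29190581 to 29208201, minus strand) did not follow the other phosphatases under vorinostat. It had 27.3 and 30.8 CPM in vehicle, 198 and 217 under EC359, 10.6 and 11.1 under vorinostat, and 64.7 and 60.5 with both drugs. No groups overlapped, vorinostat was the lowest and EC359 the highest. The log2 fold change against vehicle was 2.84 ± 0.11 for EC359 and -1.42 ± 0.11 for vorinostat, and the combination lay between them at 1.11 ± 0.11. Adding vorinostat to EC359 thus lowered DUSP4 (-1.73 ± 0.10), where the same addition raised DUSP5 (1.90 ± 0.19) and DUSP6 (1.22 ± 0.14).

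The composition of the 3 phosphatases changed with these opposite movements. Per kilobase of exon, which allows genes to be compared within a library, DUSP4 made up 61.6% ± 3.07 (SD, n = 2) of the summed level of the 3 in vehicle, 43.5% ± 4.14 under EC359, 18.5% ± 0.245 under vorinostat and 8.25% ± 0.494 with both drugs. DUSP6 went from 23.6% ± 3.07 in vehicle to 46.3% ± 7.37 under EC359, 38.9% ± 2.14 under vorinostat and 67.8% ± 3.43 with both drugs. DUSP5 held its largest share, 42.6% ± 2.38, under vorinostat alone. The summed level of the 3 was 8.48 ± 0.301 RPKM, CPM divided by exon length in kilobases, in vehicle, 86.0 ± 2.63 under EC359, 10.6 ± 0.233 under vorinostat and 137 ± 1.68 with both drugs, so that the EC359 mean was 10.1 times and the combination mean 16.1 times that of vehicle.

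**Figure D2:**
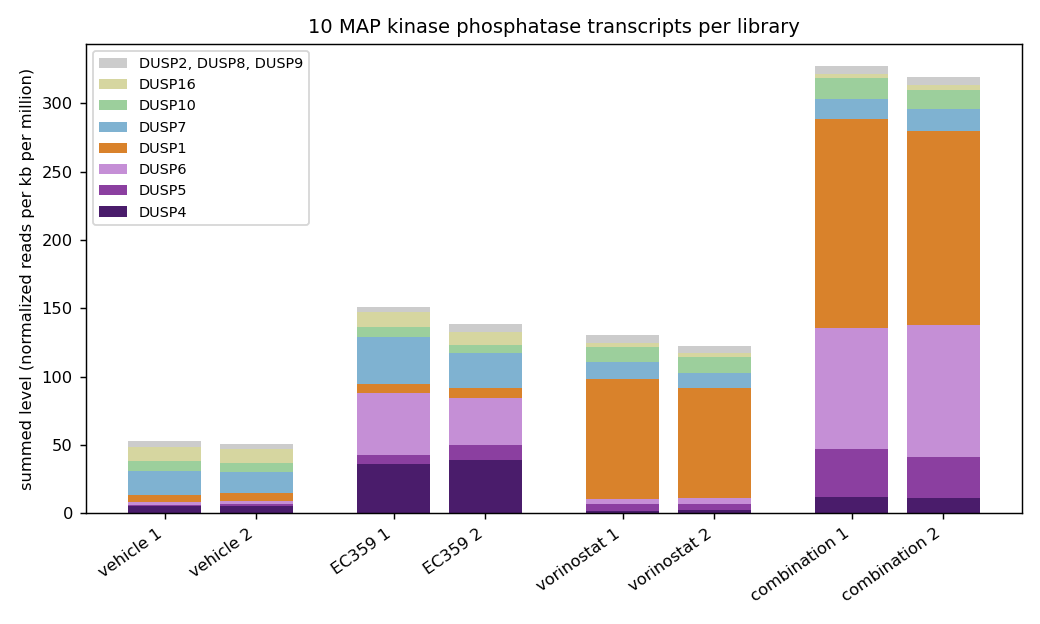
Summed level of 10 MAP kinase phosphatase transcripts in each of the 8 libraries, in RPKM, stacked by gene with the axis starting at 0. Mean totals were 51.7 in vehicle, 145 under EC359, 126 under vorinostat and 323 with both drugs; DUSP1 made up 66.8% of the vorinostat total, and DUSP4 and DUSP6 together most of the gain under EC359.

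Set among the other MAP kinase phosphatases, the EC359 and vorinostat libraries differed in which genes made up the total. The summed level of 10 such phosphatases was 51.7 ± 1.51 RPKM in vehicle, 145 ± 8.58 under EC359, 126 ± 5.68 under vorinostat and 323 ± 5.26 with both drugs (SD, n = 2). Of this total, DUSP4 and DUSP6 held 25.9% and 27.5% under EC359 and 1.55% and 3.28% under vorinostat. DUSP1, an immediate early phosphatase that acts on ERK, JNK and p38, held 10.4% in vehicle, 5.04% under EC359, 66.8% under vorinostat and 45.6% with both drugs. DUSP1 differed from vehicle by 0.44 ± 0.13 in log2 with EC359, which was not called (adjusted p = 0.045), and 3.98 ± 0.13 under vorinostat (adjusted p = 1.3e-07, edgeR).

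Of the Sprouty genes, SPRY4 (chromosome 5, 141689992 to 141706020, minus strand) had 6.33 and 4.76 CPM in vehicle, 96.5 and 75.9 under EC359, 2.57 and 3.06 under vorinostat, and 28.7 and 33.5 with both drugs. The groups did not overlap, with vorinostat lowest and EC359 highest. The log2 fold change was 3.96 ± 0.19 for EC359, a 15.5-fold higher level, and 2.49 ± 0.19 for the combination. Vorinostat alone gave -0.97 ± 0.22, short of the fold threshold, and adding vorinostat to EC359 gave -1.47 ± 0.17, which was called.

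SPRY2 (chromosome 13, 80910111 to 80915261, minus strand) moved in the same directions over a smaller range. The libraries held 53.7 and 45.6 CPM in vehicle, 110.0 and 106 under EC359, 26.5 and 24.1 under vorinostat, and 88.1 and 88.7 with both drugs. The groups did not overlap, and the order was that of SPRY4. Relative to vehicle it differed by 1.12 ± 0.11 with EC359, -0.97 ± 0.11 with vorinostat and 0.83 ± 0.11 with both, in log2. Without vehicle replicate 2 the vorinostat difference passed the fold threshold for SPRY2 (-1.10) and for SPRY4 (-1.17), and for SPRY2 also without vorinostat replicate 1 (-1.05).

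The Spred genes had the smallest EC359 differences of the 10. SPRED1 (chromosome 15, 38545037 to 38649450, plus strand) had 24.7 and 22.1 CPM in vehicle, 36.1 and 37.9 under EC359, 11.7 and 10.8 under vorinostat, and 21.8 and 18.5 with both drugs. Of the 10 genes it alone had combination libraries below the vehicle libraries, a difference of -0.22 ± 0.13 in log2. With vorinostat alone it stood at -1.05 ± 0.14, a call that was lost without vehicle replicate 1 (-0.98). SPRED2 (chromosome 2, 65537985 to 65659771, minus strand) had 47.8 and 39.3 CPM in vehicle, 85.1 and 59.4 under EC359, 25.5 and 26.1 under vorinostat, and 61.9 and 67.9 with both drugs. Its combination libraries lay within the range of its EC359 libraries, and its vorinostat libraries lay below all others. Relative to vehicle SPRED2 differed by 0.73 ± 0.17 with EC359, -0.76 ± 0.17 with vorinostat and 0.58 ± 0.17 with both, in log2.

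Per kilobase of exon, the 4 Sprouty and Spred genes summed to 35.7 ± 4.31 RPKM in vehicle, 86.0 ± 7.96 under EC359, 18.9 ± 0.654 under vorinostat and 62.1 ± 1.51 with both drugs (SD, n = 2). SPRY2 was the main transcript in each group, between 55.2% and 62.2% of the sum on average. SPRY4 made up 3.15% ± 0.25 in vehicle and 20.4% ± 1.58 under EC359.

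ETV5 and ETV4 are the members in which vorinostat alone left levels near those of vehicle. ETV5 (chromosome 3, 185764103 to 185828107, minus strand) had 15.3 and 14.7 CPM in vehicle, 104 and 108 under EC359, 15.7 and 15.0 under vorinostat, and 126 and 117 with both drugs. Vehicle and vorinostat libraries overlapped, and the combination libraries lay above the EC359 libraries. In log2, ETV5 differed from vehicle by 2.82 ± 0.10 with EC359, 0.03 ± 0.10 with vorinostat and 3.02 ± 0.10 with both. ETV4 (chromosome 17, 41605212 to 41656988, minus strand) had 8.54 and 8.36 CPM in vehicle, 49.2 and 51.5 under EC359, 9.16 and 7.35 under vorinostat, and 24.8 and 29.9 with both drugs. Here too vehicle and vorinostat overlapped, but the combination lay below EC359. ETV4 differed from vehicle by 2.57 ± 0.15 with EC359, -0.04 ± 0.16 with vorinostat and 1.69 ± 0.15 with both. The sign of the vorinostat difference, close to 0 in both genes, turned without vorinostat replicate 2 for ETV4 (0.10) and without vehicle replicate 2 or vorinostat replicate 1 for ETV5 (-0.01 in each). In vehicle ETV5 was 50.4% ± 0.302 of the summed RPKM of the pair, and under the combination it was 71.8% ± 3.71. An exon of ETV4 overlaps DHX8 on the opposite strand by 54 bases and one of ETV5 overlaps DGKG on the same strand by 119 bases, and how reads there were assigned is not given in the sources used here.

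PHLDA1 (chromosome 12, 76419227 to 76425556, minus strand) was the most abundant of the 10 per kilobase in every group, although in vehicle its libraries overlapped those of SPRY2. It had 134 and 141 CPM in vehicle, 482 and 404 under EC359, 250 and 242 under vorinostat, and 996 and 962 with both drugs. The groups did not overlap and took the order of DUSP5 and DUSP6. PHLDA1 exceeded vehicle by 1.69 ± 0.10 with EC359, 0.84 ± 0.10 with vorinostat and 2.83 ± 0.10 with both in log2, the last a 7.12-fold higher level. Exons of PHLDA1 and DUSP6 overlap genes annotated on the opposite strand, and whether the counting used strand is not given in the sources used here.

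The order of the 10 levels per kilobase differed between the groups. In vehicle PHLDA1 (23.3 RPKM) and SPRY2 (21.7) were followed by SPRED2 (9.64), DUSP4 (5.23), ETV5 (3.68), ETV4 (3.62), SPRED1 (3.22), DUSP6 (2.00), DUSP5 (1.25) and SPRY4 (1.13), and the libraries of PHLDA1 and SPRY2, of ETV5 and ETV4, and of DUSP5 and SPRY4 overlapped. Under EC359 DUSP6 (39.9) and DUSP4 (37.4), which overlapped, came next after PHLDA1 (75.0) and SPRY2 (47.3), and SPRED1 (5.09) was last. Under vorinostat SPRY4 was last at 0.574 RPKM. Under the combination DUSP6 stood second, at 92.8 RPKM after 166 for PHLDA1, and SPRED1 was again last at 2.77.

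Under vorinostat alone the 10 genes did not share a direction. Both vorinostat libraries lay above vehicle for 3 genes (DUSP5, DUSP6 and PHLDA1), below it for 5 (DUSP4, SPRY2, SPRY4, SPRED1 and SPRED2), and overlapped it for ETV4 and ETV5. Of all tested genes 45.3% lay wholly above and 43.6% wholly below, so that 8 of 10 apart is near the background of 88.9%. The calls were 2 higher (DUSP5 and DUSP6) and 2 lower (DUSP4 and SPRED1), where vorinostat changed 30.1% of all tested genes, 16.8% higher and 13.3% lower. The 4 calls in 10 stand near that background too. The 6 luminal markers summed to 1.42 and 1.31 CPM in vehicle, 3.18 and 2.23 under EC359, 10.4 and 5.82 under vorinostat and 5.58 and 9.70 with both drugs. These sums rest on few reads, with 9 and 70 counts of EPCAM and 1 and 14 of CDH1 in the combination libraries. The 4 mesenchymal markers summed to 5110 and 4560 CPM in vehicle, 6370 and 5580 under EC359, 6920 and 7010 under vorinostat and 13800 and 14100 with both drugs. The part of such changes in these results was not tested. The median log2 fold change of the 10 was -0.40, against 0.03 over all tested genes.

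Under the combination, 9 of the 10 genes lay above vehicle in both libraries and SPRED1 lay below it, where 45.3% of all tested genes lay wholly above and 41.3% wholly below, 86.5% in all. The calls against vehicle were 7 higher and none lower, where 34.8% of all tested genes were called, 19.5% higher and 15.3% lower. The median log2 fold change was 2.09, against 0.07 over all tested genes. This comparison shares its vehicle libraries with those of the single drugs.

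**Figure D3:**
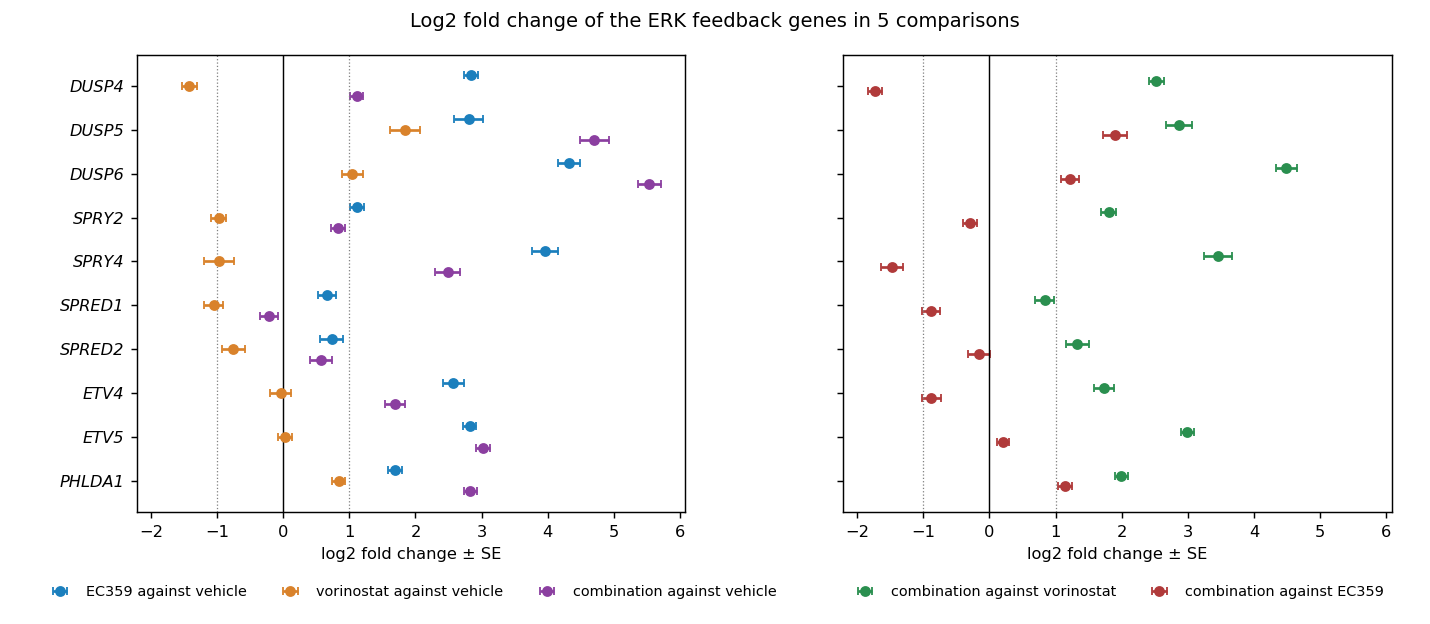
Log2 fold change ± SE of the 10 ERK feedback genes in 5 comparisons from a fit to the 8 libraries, against vehicle on the left and between the combination and each single drug on the right, with dotted lines at the fold threshold of 1 in each direction. All points of EC359 against vehicle and of the combination against vorinostat are above 0, from 0.66 to 4.32 and from 0.84 to 4.49, while the combination against EC359 runs from -1.73 to 1.90.

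With EC359 added to vorinostat the feedback genes again stood higher. Both combination libraries lay above both vorinostat libraries for 10 of 10 genes, where 36.2% of all tested genes lay wholly above and 36.7% wholly below, 72.9% in all. Of the 10, 9 were called higher and none lower, where 4.25% of all tested genes were called, 3.37% higher and 0.876% lower. That background of 582 genes fell to 285 and 300 without vorinostat replicate 1 or 2 and to 340 and 375 without combination replicate 1 or 2, and 8 members were called in each. Scaled by total counts and not by TMM, the share of higher genes among all calls moved from 79.4% to 67.6%, and the 9 calls were also found there. The median log2 fold change was 2.26, against -0.01 over all tested genes. DUSP6 (4.49 ± 0.16) and SPRY4 (3.45 ± 0.21) led, ranking 17 and 43 of 13694, and SPRED1 (0.84 ± 0.14) was not called. The call of SPRED2 (1.33 ± 0.17) was lost without either vorinostat library or either combination library, at log2 fold changes between 1.22 and 1.36.

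With vorinostat added to EC359 the 10 genes did not share a direction. The combination lay above EC359 for 4 genes (DUSP5, DUSP6, ETV5 and PHLDA1), below it for 5 (DUSP4, SPRY2, SPRY4, SPRED1 and ETV4), and overlapped it for SPRED2, where 42.3% of all tested genes lay wholly above and 37.4% wholly below, 79.7% in all. The calls were 3 higher (DUSP5, DUSP6 and PHLDA1) and 2 lower (DUSP4 and SPRY4), where 33.7% of all tested genes were called, 19.8% higher and 13.9% lower. Both counts are near that background. ETV4 (-0.88 ± 0.14) was called lower without combination replicate 2 (-1.09), and SPRED1 (-0.88 ± 0.13) without combination replicate 1 (-1.06). SPRED2 was at -0.16 ± 0.17, and at 0.11 without EC359 replicate 1.

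Whether the EC359 difference itself depended on vorinostat was measured by the interaction, the EC359 log2 fold change with vorinostat minus that without it. None of the 10 genes had an interaction at an adjusted p under 0.01 by edgeR or by DESeq2, where 2.1% of all tested genes did by edgeR, 1.62% above 0 and 0.482% below. That background of 288 genes was 1420 and 1437 without EC359 replicate 1 or 2, and between 56 and 71 without any one of the other 6 libraries. At an unadjusted p under 0.05 there were 3 of the 10, near the 22.4% of all tested genes (13.3% above 0 and 9.09% below). The 10 were selected on these libraries, so this count and the intervals that follow describe them and test none of the 10. The 3 largest interactions in absolute value were SPRY2 at 0.68 (95% interval 0.338 to 1.03), SPRED2 at 0.60 (0.0553 to 1.14) and ETV4 at -0.84 (-1.33 to -0.356). The intervals of the other 7 included 0, and they ranged in width from that of ETV5 (-0.136 to 0.481) to that of DUSP5 (-0.615 to 0.731), so that these intervals hold differences in either direction. Without EC359 replicate 1 the interaction was called for SPRY2 (0.71), SPRED2 (0.88) and PHLDA1 (0.43), and without EC359 replicate 2 for SPRY2 (0.65).

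**Figure D4:**
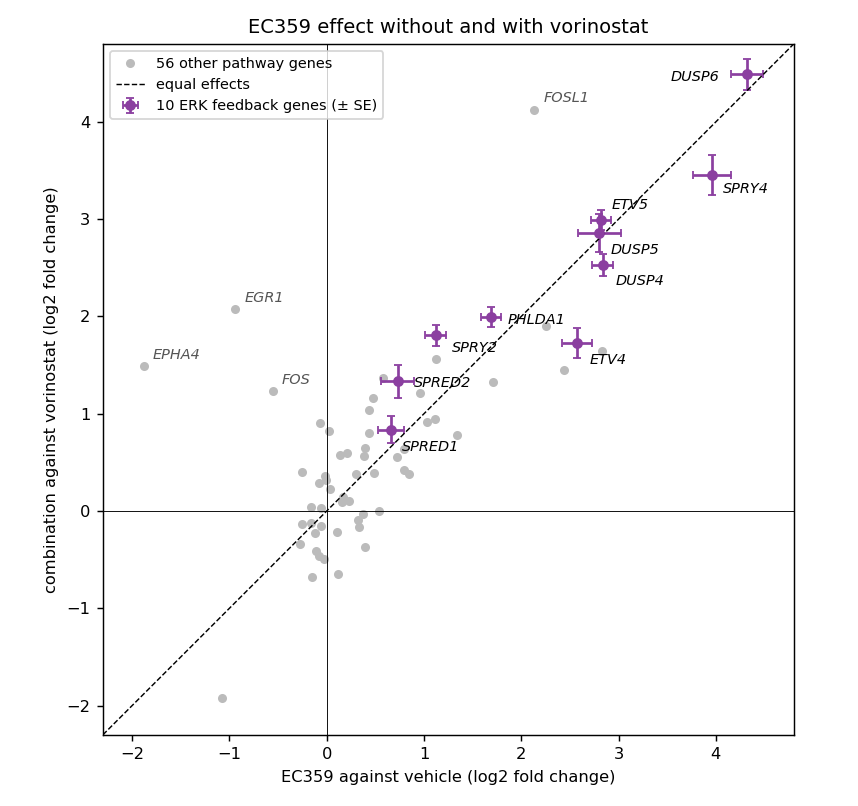
Log2 fold change of EC359 against vehicle on the horizontal axis and of the combination against vorinostat on the vertical axis, for the 10 ERK feedback genes (purple, bars are SE) and 56 other pathway genes (grey), with a dashed line where the values are equal. The feedback genes lie along the line from SPRED1 at 0.66 and 0.84 to DUSP6 at 4.32 and 4.49, with ETV4 farthest below it, whereas EPHA4, EGR1 and FOS are below 0 on the horizontal axis and above 0 on the vertical axis.

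The remainder of the pathway was read from 6 lists of 57 other genes, of which 56 were tested (SPRY3 had no counts in any library). Under EC359, 8 of the 56 were called higher and 1 lower, where 1.94% and 1.72% of all tested genes were. The median log2 fold change of the 56 was 0.22, and that of all tested genes was -0.02. Among 20 genes of the cascade from Ras to ERK none was called, and their log2 fold changes ran from -0.28 to 0.48. Leaving out vehicle replicate 2 gave 5 calls in place of 9 among the 56.

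Close relatives of the feedback genes were among those that rose under EC359, 3 of 5 tested. ETV1, the remaining PEA3 factor, had a log2 fold change of 2.83 ± 0.17 (adjusted p = 1.2e-05, edgeR), PHLDA2 of 2.44 ± 0.32 (adjusted p = 9.5e-04) and SPRY1 of 1.12 ± 0.17 (adjusted p = 0.0027). PHLDA2 had only 14 and 11 counts in the vehicle libraries (0.66 and 0.51 CPM), so its fold changes against vehicle rest on few reads. ETV1 stood at 2.45 and 2.94 CPM in vehicle, 20.8 and 17.8 under EC359, 8.33 and 8.29 under vorinostat, and 27.3 and 24.6 with both drugs. Vorinostat alone raised ETV1 by 1.62 ± 0.18, and the values of ETV4 and ETV5 there were -0.04 and 0.03. The calls of PHLDA2 and SPRY1 under EC359 were lost without vehicle replicate 1 (2.64 and 1.00) or vehicle replicate 2 (2.27 and 1.26). Both were also lost in a fit on only the EC359 and vehicle libraries (2.46 and 1.14). In the combination against vorinostat the same 3 genes were called, ETV1 at 1.64 ± 0.15 and SPRY1 at 1.56 ± 0.16 with adjusted p of 1.3e-04 and 2.3e-04 (edgeR). PHLDA2 rose by 3.36 ± 0.30 under vorinostat and by 4.82 ± 0.29 under the combination, while PHLDA3 fell in both (-1.68 ± 0.24 and -1.28 ± 0.24), the second not without combination replicate 2 (-1.23). The call of PHLDA2 against vorinostat (1.45 ± 0.22) was lost without any one of the 4 libraries compared (1.31 to 1.51).

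Of 7 other MAP kinase phosphatases none was called under EC359, with a median log2 fold change of 0.44. Vorinostat raised DUSP1 and lowered DUSP16, a JNK and p38 phosphatase, by -1.95 ± 0.12 (adjusted p = 1.4e-06, edgeR). The combination raised 3 of the 7 and lowered 2 against vehicle, where 34.8% of all tested genes were called. DUSP1 at 4.78 ± 0.13 and DUSP8 at 1.49 ± 0.14 lay above, and DUSP16 at -1.63 ± 0.11 and DUSP9 at -1.14 ± 0.25 below. Set against EC359, the combination raised DUSP1 (4.35 ± 0.13) and DUSP10 (1.09 ± 0.13) and lowered DUSP16 (-1.63 ± 0.11), and set against vorinostat it raised DUSP8 (1.17 ± 0.14) and lowered DUSP9 (-1.92 ± 0.24). The DUSP10 call was lost without EC359 replicate 2 (0.97) or combination replicate 1 (0.99), that of DUSP8 against vorinostat without vorinostat replicate 1 (1.13) or 2 (1.12), and that of DUSP9 against vorinostat without vorinostat replicate 1 (-1.86). DUSP9 lost its call against vehicle without vehicle replicate 1 (-1.08), vehicle replicate 2 (-1.22) or combination replicate 1 (-1.05).

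Of 10 inhibitors acting on receptors or Ras, ERRFI1, a feedback inhibitor of EGFR, was the one called under EC359 (1.12 ± 0.08, adjusted p = 2.8e-05, edgeR). It also rose under vorinostat (2.74 ± 0.08) and the combination (3.68 ± 0.09). IL17RD, an inhibitor of FGF receptor signalling also known as Sef, rose under vorinostat (1.52 ± 0.16), while NF1, a GTPase-activating protein for Ras, fell (-1.06 ± 0.11). In the cascade, vorinostat raised RPS6KA1, an ERK-activated kinase (2.25 ± 0.13), and the adaptor GRB2 (1.10 ± 0.09), and the combination lowered SOS2, a Ras exchange factor (-1.01 ± 0.18), a call lost without vehicle replicate 1 (-0.99) or combination replicate 1 (-0.91). The SOS2 call was also lost with a filter of at least 1 CPM in 2 libraries (-0.99).

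Other genes that ERK can raise did not move as a block against vehicle. Of 8, EC359 raised FOSL1, IER3 and CCND1 and lowered EPHA4, where 1.94% of all tested genes were called higher and 1.72% lower. The other 4 were not called. Both EC359 libraries lay below both vehicle libraries for EGR1 (22.8 and 16.1 against 42.1 and 32.9 CPM) and FOS (7.55 and 7.76 against 12.7 and 9.76). For MYC and EPHA2 both lay above. Of all tested genes 28.8% lay wholly below and 24.6% wholly above. FOSL1, an AP-1 subunit, stood at 108 and 87.2 CPM in vehicle, 551 and 304 under EC359, 7.25 and 6.16 under vorinostat, and 101 and 133 with both drugs. FOSL1 differed from vehicle by 2.14 ± 0.26 in log2 with EC359 (adjusted p = 6.9e-04, edgeR), a call lost without vehicle replicate 2 (2.00), and by -3.86 ± 0.30 with vorinostat. Its EC359 call was also lost in a fit on only the 4 libraries compared (2.16). IER3, an immediate early gene, rose by 2.25 ± 0.08 under EC359, 2.58 ± 0.08 under vorinostat and 4.49 ± 0.09 with both drugs. EPHA4, a receptor for ephrins, fell under either drug alone, by 1.88 and 1.70 on the log2 scale, and differed from vehicle by -0.21 ± 0.11 under the combination (adjusted p = 0.11, edgeR). FOS, an immediate early AP-1 subunit, rose by 3.18 ± 0.13 under vorinostat and 4.42 ± 0.14 with both drugs, and EPHA2, an ephrin receptor, fell under vorinostat (-2.02 ± 0.09). CCND1, cyclin D1, was 1.03 ± 0.09 higher under EC359 and 2.02 lower under vorinostat on the log2 scale, and its EC359 call was lost without EC359 replicate 1 (0.99). In the combination against vorinostat all 8 had log2 fold changes above 0, from 0.91 to 4.12. Of the 8, 7 were called higher, where 3.37% of all tested genes were, EGR1 at 2.08 ± 0.18 and FOSL1 at 4.12 ± 0.30 among them. Of 6 ternary complex and ETS factors, ELK3 rose under EC359 (1.71 ± 0.23, adjusted p = 0.0012, edgeR), a call lost without vehicle replicate 1 (1.79) or vehicle replicate 2 (1.65). That call was also lost in a fit on only the EC359 and vehicle libraries (1.73). In the combination against vorinostat ELK3 (1.33 ± 0.23) and ETS1 (1.04 ± 0.09) were called, ELK3 not without any one of those 4 libraries and ETS1 not with total counts (0.95) or without vorinostat replicate 1 (0.98) or combination replicate 2 (1.00).

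The combination against EC359 had 13 of the 56 called higher and 6 lower, where 33.7% of all tested genes were called, 19.8% higher and 13.9% lower. FOS (4.97 ± 0.14) and EGR1 (4.06 ± 0.20) rose most among the ERK-responsive genes, ERRFI1 (2.57 ± 0.08) and IL17RD (1.64 ± 0.17) among the inhibitors, and PHLDA2 (2.38 ± 0.23) and SPRY1 (1.48 ± 0.16) among the relatives. In the cascade RPS6KA1 rose (1.72 ± 0.13) and SOS2 fell (-1.39 ± 0.18), and CCND1 (-2.14 ± 0.10) and FOSL1 (-1.87 ± 0.26) fell among the ERK-responsive genes. PHLDA3 (-1.03 ± 0.24) was called lower, but not without EC359 replicate 2 (-0.58), combination replicate 1 (-1.21) or combination replicate 2 (-0.998), nor with a replicate block (-0.99).

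**Figure D5:**
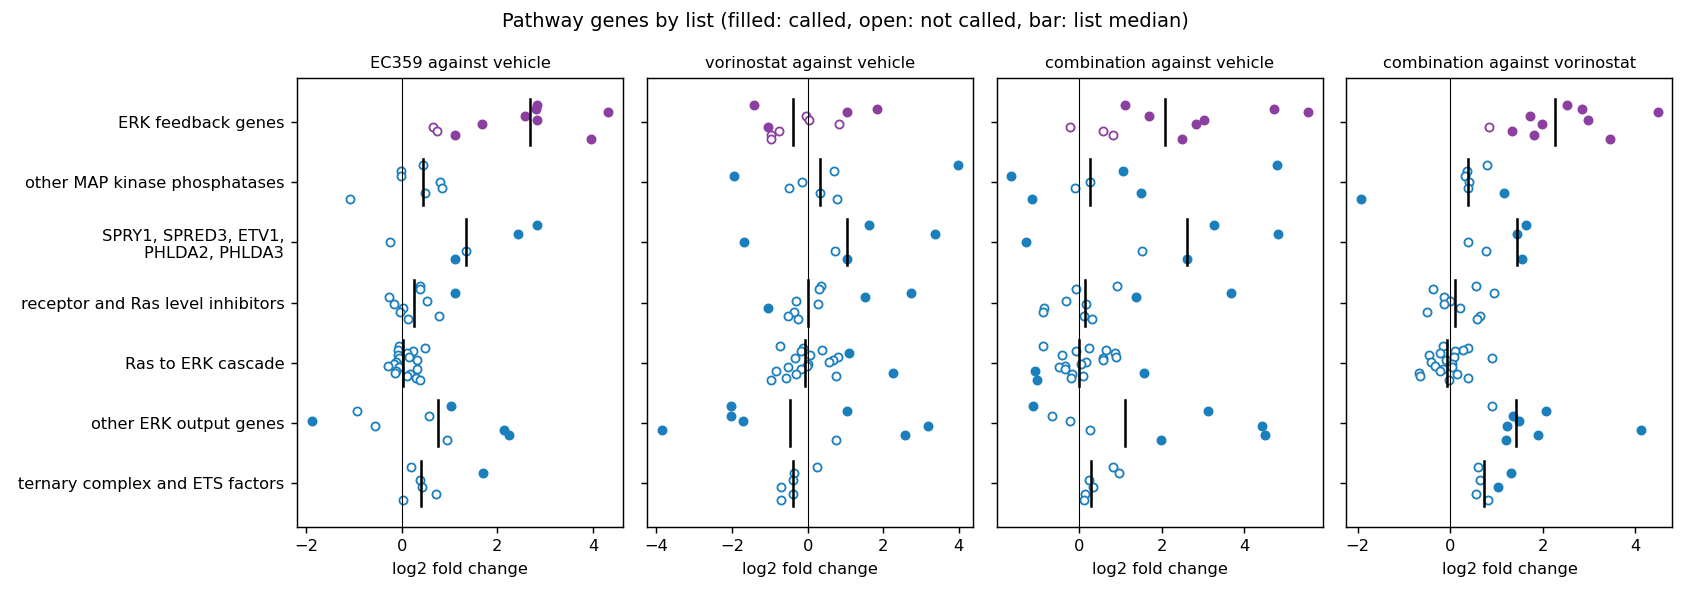
Log2 fold change of the 10 ERK feedback genes (purple) and of 56 other pathway genes in 6 lists (blue), 1 point per gene, in 4 comparisons. Filled points are called, open points are not, and bars are list medians. The feedback genes, which were selected on these libraries, have medians of 2.69 under EC359 and 2.26 in the combination against vorinostat. The cascade from Ras to ERK has medians of 0.02 and -0.06 there. Under vorinostat and the combination against vehicle, the feedback genes have medians of -0.40 and 2.09, and their close relatives 1.04 and 2.60.

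Among the 56, the interaction was called in 5, where it was called in 2.1% of all tested genes. It was above 0 for EPHA4 (3.37 ± 0.16, adjusted p = 2.3e-05), EGR1 (3.02 ± 0.26, adjusted p = 3.1e-04), FOS (1.79 ± 0.18, adjusted p = 8.3e-04) and EPHA2 (0.79 ± 0.13, adjusted p = 0.0087), and below 0 for the adaptor SHC1 (-0.77 ± 0.11, adjusted p = 0.0046), all by edgeR's quasi-likelihood test. FOS and EPHA2 were named here after their values were seen. Leaving out a library moved this count, to 14 without EC359 replicate 1, to 13 without EC359 replicate 2, to 3 without vehicle replicate 1, vehicle replicate 2 or vorinostat replicate 2, and to 2 without vorinostat replicate 1, combination replicate 1 or combination replicate 2.

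The genes whose pattern lay closest to each member were found by the Euclidean distance between log2 fold changes against vehicle under EC359, vorinostat and the combination, over 3 values that share the vehicle libraries. Within the 10, the nearest pair was SPRY2 and SPRED2 (distance 0.515), while DUSP6 was nearest to DUSP5 (1.90) and DUSP4 to ETV4 (1.52). Among 9966 other genes with an average log2 CPM of at least 3, the nearest to SPRY2 were PPIF (0.0807) and MAFG (0.198), to SPRED1 NET1 (0.0761) and CCDC15 (0.115), and to SPRED2 CD44 (0.170) and TRIB3 (0.205). PLAUR, the urokinase receptor, was nearest to ETV4 (0.407), with log2 fold changes of 2.20, -0.14 and 1.82 in that order, followed by UBASH3B (0.600). For ETV5 the nearest were GPR3 (0.473) and MMP1, interstitial collagenase (0.688), and for PHLDA1 ZSWIM4 (0.202) and ITPR1 (0.252). DUSP4 was closest to NAV3 (0.696) and SHISA2 (0.744), and DUSP5 to IER3 (0.948) and LOC730755 (0.992). For DUSP6 the nearest were GDF15 (0.916) and MMP3, stromelysin (1.15), and for SPRY4 MMP1 (1.04) and HAS3 (1.42). These distances describe likeness over 3 conditions in 8 libraries.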

How the data were processed

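RNA of 8 BT-549 libraries was sequenced by the authors, whose reads were aligned to hg19 by TopHat2 (2.0.8b in the submitters' processing notes) and assigned to RefSeq genes by HTSeq. The values deposited by the authors are raw read counts for each gene symbol, not normalized. The version and strand setting of the counting are not given in the sources used here, and 5 HTSeq summary lines per list were left out. With 19069450 to 24759041 counts per library, libraries of a group differed by more than counting noise (chi-square per degree of freedom 2.26 to 48.6), so none was taken as a duplicate.

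Genes were kept by filterByExpr of edgeR 4.0.16 (R 4.3.3), scaled by TMM and fitted with 1 mean per group in a quasi-likelihood model. A standard error was taken as the size of the log2 fold change over the square root of its F. A call required a Benjamini-Hochberg adjusted p under 0.01 over all tested genes and an absolute log2 fold change over 1, an interaction the adjusted p alone. RPKM used the exon length of the canonical GENCODE transcript on GRCh37, the build hg19 shares.

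The members, gene lists and tests were chosen with earlier results of these data known. Of each list other than the members, up to 2 genes called in each direction per comparison, largest in absolute log2 fold change with an average log2 CPM of at least 1, were named. DUSP1, SPRY1, CCND1, EGR1, FOS, MYC and EPHA2 under EC359 were named in addition, after their values were seen. So were CCND1 and EPHA4 under vorinostat, EPHA4 under the combination, and FOS and EPHA2 in the interaction. Some genes of the lists are counted but not reported here by name. The fit was tested on simulated data with known changes. The alternatives tried included DESeq2 1.42.0, scaling by RLE or by total counts, other filters and thresholds, fits on 4 libraries, a replicate block, and leaving out each library; a crossed block was added after seeing the data.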

Additional observations from a re-analysis of the deposited data

Results flagged for a closer look

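Of the 56 pathway genes tested outside the 10 feedback genes, 5 had an EC359 difference that itself differed between cells without and with vorinostat by edgeR's interaction test. The log2 difference was 3.37 for EPHA4, 3.02 for EGR1, 1.79 for FOS, 0.79 for EPHA2 and -0.77 for SHC1. EPHA4 had 89.3 and 80.3 CPM in vehicle, 24.6 and 21.5 under EC359, 25.0 and 27.1 under vorinostat, and 72.2 and 74.2 with both drugs. EGR1 had 42.1 and 32.9 CPM in vehicle, 22.8 and 16.1 under EC359, 74.1 and 80.7 under vorinostat, and 298 and 356 with both drugs. The calls of EPHA4 and EGR1 were also found with each library left out in turn. That of FOS was lost without vorinostat replicate 1 (1.68), combination replicate 1 (1.71) or combination replicate 2 (1.75). Those of EPHA2 and SHC1 were lost without any one of the vehicle, vorinostat or combination libraries, at values from 0.70 to 0.84 and from -0.84 to -0.74. That of EPHA2 was also lost with RLE scaling (0.74), total counts (0.71) and the replicate block (0.79), and that of SHC1 with the block (-0.77).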

How the results depend on the processing

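With 2 libraries per group, most results of the feedback genes kept their direction and call over the alternatives. Of 890 values over the 60 member results and their alternatives, 863 kept their direction and call, and 44 of the 60 results did so throughout. The number of members called was the same as reported under DESeq2, RLE and total-count scaling, both other filters and the fits on 4 libraries. Over all genes, calls under EC359 went from 502 to 1071 without the fold threshold, 233 on 4 libraries, 304 and 298 without vehicle replicate 1 and 2, and 924 without EC359 replicate 2. Interactions went from 288 to 696 by DESeq2, 925 at an adjusted p under 0.05, 189 with the block and 477 with it crossed, 1420 and 1437 without EC359 replicate 1 and 2, and 56 to 71 without any other library, and their share above 0 from 77.1% to 62.6% by DESeq2, 65.3% without a filter, and 62.8% and 55.5% without EC359 replicate 1 and 2. Without the fold threshold, 8 members were called under vorinostat, and the pathway genes called were 15 for EC359, 34 for vorinostat, 32 for the combination against vehicle, 26 against vorinostat and 34 against EC359. At an adjusted p under 0.05, 1 member and 9 pathway genes had an interaction, and on 4 libraries 5 pathway genes were called under EC359.

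Leaving out 1 library, where the lone library is assumed to vary like the other groups, gave ranges of 8 to 8 members called for EC359, 3 to 5 for vorinostat, 7 to 7 for the combination against vehicle, 8 to 9 against vorinostat, 5 to 6 against EC359 and 0 to 3 for the interaction. For pathway genes the ranges were 5 to 11, 17 to 18, 16 to 20, 9 to 14, 17 to 21 and 2 to 14. The differences that changed sign were between -0.16 and 0.17 as reported. The DUSP5 interaction was -0.0237 with total counts, -0.00682 without a filter, -0.215 without EC359 replicate 1, -0.0342 without vorinostat replicate 2 and -0.116 without combination replicate 1, the lowest and highest without 1 library being -0.215 and 0.373. That of DUSP6 ran from -0.0178 (without EC359 replicate 2) to 0.376, and that of SPRED1 from -0.0031 (without combination replicate 1) to 0.247. Under vorinostat, ETV4 ran from -0.207 to 0.103 (without vorinostat replicate 2), and ETV5 from -0.0102 (without vorinostat replicate 1) to 0.0523, with -0.0096 without vehicle replicate 2. SPRED2 in the combination against EC359 ran from -0.408 to 0.114 (without EC359 replicate 1). The cause of these changes was not tested.

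Libraries are numbered 1 and 2 in the labels, with no other sign of pairing. Correlations across genes of the deviations of same-numbered libraries were 0.231, 0.0746 and -0.100 for vehicle with EC359, vorinostat and the combination, -0.00984 and -0.173 for EC359 with vorinostat and the combination, and -0.108 for vorinostat with the combination. With the number as a replicate block, the count of members called did not change in any comparison, and 3 pathway genes had an interaction in place of 5. With the combination numbers crossed, the block gave 7 members called against vehicle, 9 against vorinostat, 5 against EC359 and 0 interactions.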
